A study of Mus musculus with 10 samples.

Results

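The genes described here are 10 genes of Nodal signalling, the primitive streak and mesoderm: Nodal, Tdgf1, Lefty1, Lefty2, T, Eomes, Mixl1, Gsc, Fgf8 and Kdr. They were chosen by name, out of 19473 genes measured, by a rule that uses no measured value but was set with earlier results of these data known. Together they hold 17 of 43031 measured features, which lie at 13 of 28730 distinct sites. A feature is the 3′UTR of a UCSC transcript extended by 2 kb downstream, a site is the set of features with the same coordinates, and TPM (a share of the library normalized for feature length) was added over the features of a site. Reads of the 3′UTR and reads of the added downstream bases cannot be separated in such a value.

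RNA-seq was performed on mouse C57BL/6 embryonic stem cells (ESC) kept undifferentiated in serum and leukemia inhibitory factor, on mitomycin C-treated fibroblast feeders or gelatin. WT cells were compared with DIDO3ΔE16 cells, a homozygous line in which the floxed exon 16 that is specific to DIDO3, the longest product of the gene Dido1, was deleted after a cross with Sox2-Cre mice. The third group, DIDO3ΔCT+HADIDO3, carries an earlier, constitutive deletion of the DIDO3 C-terminus that affects the same exon, and was reconstituted with HA-tagged DIDO3. It is another mutant line than DIDO3ΔE16, and DIDO3ΔCT cells without HADIDO3 were not analysed here, so the effect of the added protein and that of the line cannot be told apart. Each group had 3 libraries. Of the 10 labelled samples, WT replicates 2 and 3 point to the same library, which is counted once and called WT replicate 2-3. Nothing says that replicates are separate cultures or clones, so p-values measure the spread between these libraries, which may be technical. WT replicates 1 and 4 were run on another family of flow cells than all other libraries.

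Nodal is a secreted ligand of the TGF-beta superfamily that signals through activin receptors with the help of the co-receptor Tdgf1 (Cripto), and its signal induces its own antagonists, Lefty1 and Lefty2. In the mouse embryo Nodal is needed to form the primitive streak, where T (Brachyury), Eomes, Mixl1 and Gsc mark the cells that become mesoderm and endoderm, and where Fgf8 is needed for cells to move away. Kdr, the VEGF receptor also called Flk1, marks the mesoderm that gives rise to blood and vessels. ESC in serum are known to make Nodal, Tdgf1 and the Lefty genes without leaving pluripotency.

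Bases in features totalled 1.46 to 2.62 Gb per library. All 12 pluripotency genes examined, Pou5f1, Sox2 and Nanog among them, were at 1 TPM or more in every library. Some varied widely within a group, such as Nanog at 664, 676 and 3.10 TPM in WT replicates 1, 2-3 and 4. At the distal site of Dido1, where its longest transcripts end, the mean fell from 16.1 TPM in WT to 0.455 in DIDO3ΔE16 (adjusted p = 0.000269), and DIDO3ΔCT+HADIDO3 had 11.5. A site was tested where its TPM was above 0 in every library of a comparison, and it was called higher or lower when limma gave an adjusted p under 0.05 (Benjamini-Hochberg over all sites) and the log2 fold change was 0.7 or more in size. By this rule 67.4% of the calls in DIDO3ΔE16 against WT were higher, and 55.0% under quantile normalization. Of the 12 pluripotency genes, 0 were called in DIDO3ΔE16 against WT, where 15.1% of all tested sites were. In DIDO3ΔCT+HADIDO3 against WT, 1 was called higher and 2 lower (25%, beside 17.3% of all tested sites). In DIDO3ΔE16 against DIDO3ΔCT+HADIDO3, 2 were called higher and 1 lower (25%, beside 27.4%). The smallest p that an exact permutation test can reach with 3 libraries in each group is 0.1. The sequencing was of whole cultures, in which fewer cells of a type and less RNA per cell cannot be told apart.

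In DIDO3ΔE16 the antagonists Lefty1 and Lefty2 fell 4.48-fold and 6.13-fold against WT, while the streak factors T and Eomes rose 1.94-fold and 1.83-fold. These are 4 calls among the 10 genes, each taken at its most abundant site, where 15.1% of all 21063 tested sites were called (10.2% higher and 4.94% lower). In DIDO3ΔCT+HADIDO3, 4 genes fell against WT, namely Nodal, Lefty1, Lefty2 and Eomes, and Kdr rose. These are 5 calls among 10, where 17.3% of all 20879 tested sites were called (10.1% higher and 7.24% lower). Between the lines, Nodal, T and Eomes were higher and Lefty2 and Mixl1 lower in DIDO3ΔE16, which again makes 5 calls, where 27.4% of all 21172 tested sites were called (13.9% higher and 13.4% lower). Both comparisons with WT use the same WT libraries.

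The groups did not overlap for 7 of the 10 genes in DIDO3ΔE16 against WT, where 49.4% of tested sites did not overlap. They did not overlap for 5 genes in DIDO3ΔCT+HADIDO3 against WT, where the share of all sites was 53.5%, and for 7 genes between the lines, where it was 61.6%. The median log2 fold change of the 10 genes was 0.19 in DIDO3ΔE16 against WT, -0.46 in DIDO3ΔCT+HADIDO3 against WT and 0.17 between the lines. The medians of all tested sites were -0.012, -0.014 and 0.011.

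**Figure D1:**
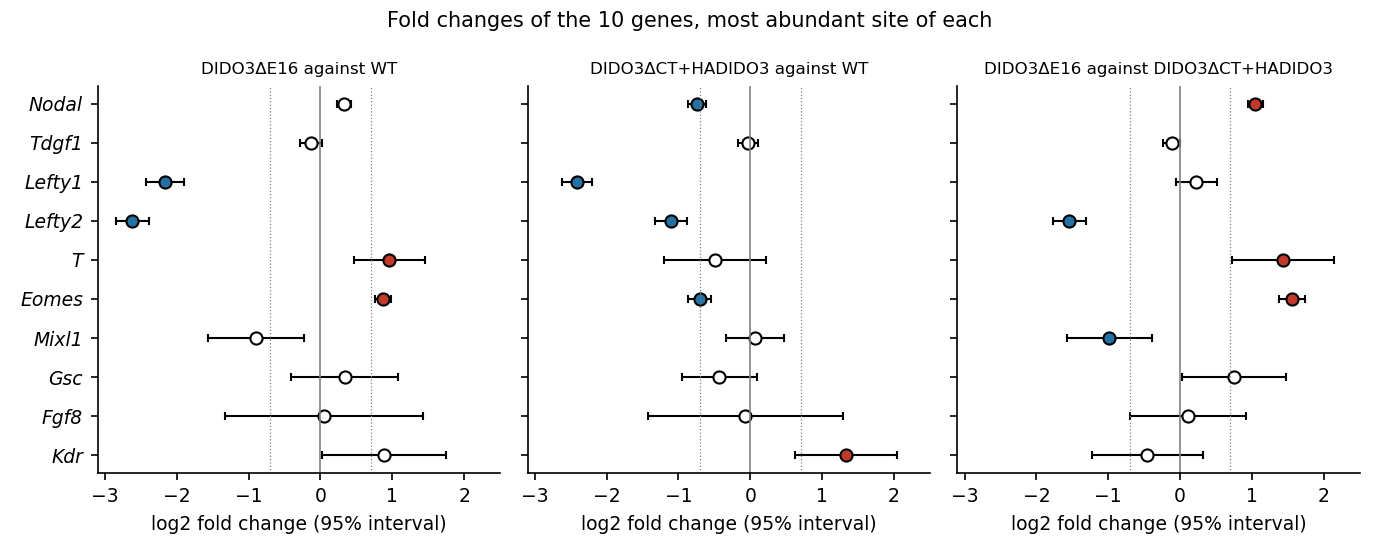
Log2 fold change (x axis, on scaled TPM + 0.1) of each of the 10 genes at its most abundant site in the 3 comparisons, as points with 95% confidence intervals. Lefty1 and Lefty2 lie farthest below 0 in DIDO3ΔE16 against WT, at -2.16 and -2.62, and the widest intervals in each comparison belong to Fgf8 and Kdr.

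By TPM, the genes spanned a wide range. In WT, 30.5% of sites had a lower mean than Kdr, the lowest of the 10 genes, and 99.98% a lower mean than Tdgf1, the highest. The length behind TPM includes the added 2 kb, so the order of genes with similar TPM can depend on the added bases. In WT the order by mean TPM was Tdgf1 (2254), Lefty2 (195.5), Nodal (106), Lefty1 (87.0), Eomes (29.9), Mixl1 (2.72), T (2.17), Gsc (1.05), Fgf8 (0.373) and Kdr (0.320). Of the neighbours in this order, Mixl1 and T overlapped between libraries, as did Fgf8 and Kdr. In DIDO3ΔE16 Nodal (139) and Eomes (57.4) stood above Lefty2 (33.2) and Lefty1 (20.3), and T (4.51) stood above Mixl1 (1.5). In DIDO3ΔCT+HADIDO3 the order of the first 3 was that of WT, with Lefty2 at 98.0 and Nodal at 68.2, and the libraries of Eomes (19.7) and Lefty1 (17.5) overlapped.

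Nodal, the ligand itself, was highest in DIDO3ΔE16 and lowest in DIDO3ΔCT+HADIDO3. Its site (mm10, chr10:61424637-61427337, + strand) begins with 701 bases of 3′UTR and shares no base with another site on its strand, as is the case for every site of the 10 genes. Nodal measured 106, 103 and 109 TPM in WT replicates 1, 2-3 and 4, 137, 141 and 138 in DIDO3ΔE16 replicates 1 to 3, and 66.4, 71.2 and 66.9 in DIDO3ΔCT+HADIDO3 replicates 1 to 3. All 3 groups stood apart, and the spread within a group was small, with SDs of 3.25, 1.89 and 2.65 TPM (n = 3 each). In DIDO3ΔE16 against WT the log2 fold change was 0.33 ± 0.04 (SE, 95% confidence interval 0.23 to 0.42, adjusted p = 0.00289), a 1.25-fold difference below the fold required for a call. Nodal fell 1.67-fold in DIDO3ΔCT+HADIDO3 against WT (log2 fold change -0.74 ± 0.05, adjusted p = 0.000526). That value is near the required fold, and the call was lost in 5 of 19 alternatives: with WT replicate 2-3 as the only WT library (-0.70), the flow cell family as a covariate (-0.70), no scaling (-0.64), quantile normalization (-0.63) and the replicate block (-0.68). Between the lines Nodal was 2.06-fold higher in DIDO3ΔE16 (adjusted p = 5.44e-05). Each of these values rests on 793 to 1561 read pairs.

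Tdgf1, the membrane-anchored co-receptor, was the most abundant of the genes and among the most abundant sites of the libraries, where at least 99.97% of sites had a lower mean. Its site (chr9:110937608-110940703, - strand) measured 2169, 2209 and 2384 TPM in WT, 2247, 2138 and 2081 in DIDO3ΔE16, and 2380, 2400 and 2329 in DIDO3ΔCT+HADIDO3. WT overlapped both mutant groups, and none of the 3 comparisons passed the test. With 19877 to 36752 read pairs per library the intervals are narrow. The 95% interval of the log2 fold change was -0.28 to 0.03 in DIDO3ΔE16 against WT (adjusted p = 0.174) and -0.17 to 0.11 in DIDO3ΔCT+HADIDO3 against WT (adjusted p = 0.713). Between the lines, whose libraries did not overlap, it was -0.24 to 0.00 (adjusted p = 0.0897).

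Lefty1, a secreted antagonist that binds Nodal and its co-receptor, fell in both mutant groups to levels that overlapped. Its site (chr1:180937976-180940401, + strand, 426 bases of 3′UTR) measured 83.6, 92.6 and 84.9 TPM in WT, 18.9, 23.3 and 18.7 in DIDO3ΔE16, and 18.9, 16.5 and 17.1 in DIDO3ΔCT+HADIDO3. Every WT library lay above every mutant library, while the mutant groups overlapped each other. The log2 fold change against WT was -2.16 ± 0.10 in DIDO3ΔE16 (SE, adjusted p = 0.000289) and -2.41 ± 0.08 in DIDO3ΔCT+HADIDO3 (adjusted p = 0.000107), the latter a 5.31-fold decrease. In DIDO3ΔE16 it was number 283 of the 10759 sites with a negative log2 fold change, counted from the largest decrease. Between the lines the log2 difference was 0.22 with a 95% interval of -0.06 to 0.51 (adjusted p = 0.164).

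Lefty2, the second antagonist, fell in both mutant groups too, but to different levels. Its site (chr1:180897814-180901107, + strand, 1294 bases of 3′UTR) measured 205, 206 and 175 TPM in WT, 30.4, 36.6 and 32.8 in DIDO3ΔE16, and 104, 98.6 and 91.7 in DIDO3ΔCT+HADIDO3. The 3 groups stood apart, with DIDO3ΔCT+HADIDO3 between the others. The log2 fold change against WT was -2.62 ± 0.09 in DIDO3ΔE16 (adjusted p = 0.000144), number 172 among the decreases, and -1.1 ± 0.09 in DIDO3ΔCT+HADIDO3 (adjusted p = 0.000824), a 2.14-fold decrease. The difference between the lines was itself past the test, with Lefty2 lower in DIDO3ΔE16 by 2.91-fold (log2 fold change -1.54 ± 0.09, adjusted p = 0.000165). Lefty1 rests on 131 to 894 read pairs per library and Lefty2 on 286 to 2975.

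**Figure D2:**
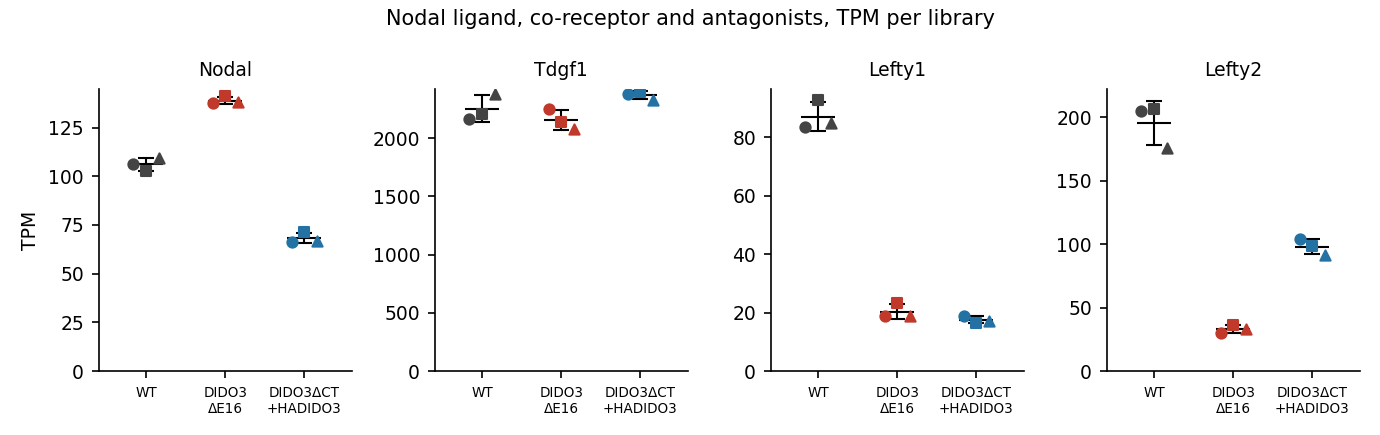
TPM (y axis, starting at 0) of Nodal, Tdgf1, Lefty1 and Lefty2 in each of the 9 libraries by group, with mean and SD (n = 3). Lefty1 is low in both mutant groups, at 16.5 to 23.3 TPM, while Lefty2 is at 91.7 to 104 in DIDO3ΔCT+HADIDO3 and at 30.4 to 36.6 in DIDO3ΔE16.

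The balance of antagonist and ligand was therefore computed within each library, where scaling between libraries has no part. The ratio of Lefty2 to Nodal TPM was 1.93, 2.01 and 1.61 in WT, 0.221, 0.260 and 0.237 in DIDO3ΔE16, and 1.56, 1.38 and 1.37 in DIDO3ΔCT+HADIDO3. Lefty2 TPM was thus above Nodal TPM in WT and DIDO3ΔCT+HADIDO3, and below it in DIDO3ΔE16. The length behind TPM includes the added 2 kb, beside 1294 bases of 3′UTR in Lefty2 and 701 in Nodal. Which of the genes stands higher can depend on the added bases, while the fold between groups does not use the lengths. The ratio was 7.70-fold lower in DIDO3ΔE16 than in WT, 1.28-fold lower in DIDO3ΔCT+HADIDO3 than in WT, and 6.01-fold lower in DIDO3ΔE16 than in DIDO3ΔCT+HADIDO3. The ratio of Lefty1 to Nodal was 0.822 ± 0.0688 in WT, compared with 0.146 ± 0.0169 in DIDO3ΔE16 and 0.258 ± 0.0262 in DIDO3ΔCT+HADIDO3 (SD, n = 3).

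The antagonists also differed from each other. The ratio of Lefty1 to Lefty2 was 0.447 ± 0.0379 in WT, compared with 0.610 ± 0.0359 in DIDO3ΔE16 and 0.179 ± 0.010 in DIDO3ΔCT+HADIDO3 (SD, n = 3). By TPM, Lefty2 was thus the higher of the pair in every library, and its lead was widest in DIDO3ΔCT+HADIDO3. The length behind TPM includes the added 2 kb, beside 426 bases of 3′UTR in Lefty1 and 1294 in Lefty2. Which transcript of the pair is more abundant can therefore not be read from this ratio. For all 3 ratios the groups stood apart in all 3 comparisons, with an exact 2-sided permutation p = 0.1 each, the smallest that 3 against 3 can give.

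**Figure D3:**
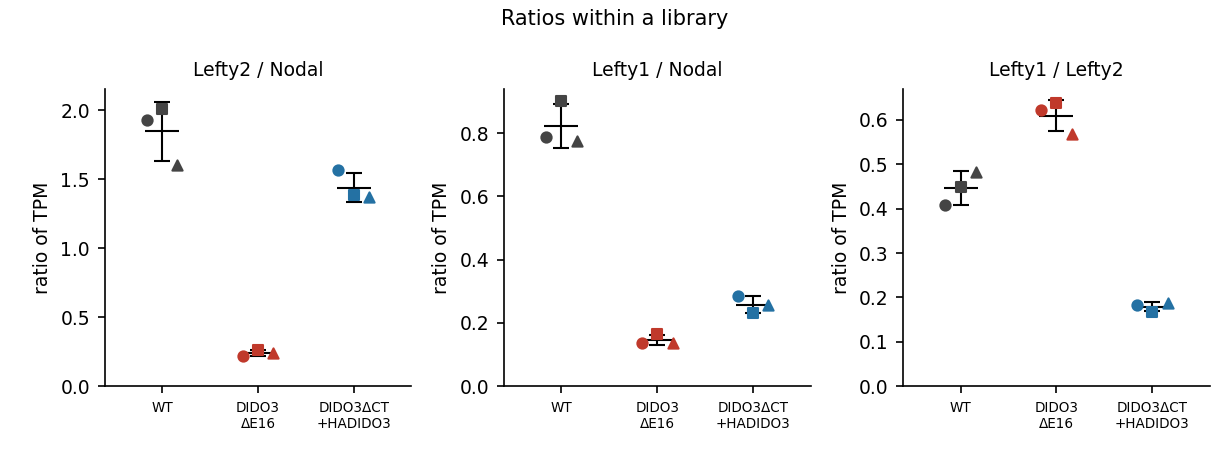
Ratios of TPM within each library (y axis) of Lefty2 to Nodal, Lefty1 to Nodal and Lefty1 to Lefty2, by group, with mean and SD (n = 3). The Lefty2 to Nodal ratio is 0.221 to 0.260 in DIDO3ΔE16 and at least 1.37 in every other library.

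Lefty1 and Lefty2 share a stretch of their 3′UTRs, which is shown here in letters because it lies in the 3′UTR part of both measured sites. The miR-290 and miR-302 clusters are the main miRNA families of ESC, and Lefty genes are known targets of miRNAs with their seed. No miRNA was measured here. The seed, bases 2 to 8 in capitals, is the same in 5 mature mouse miRNAs of RefSeq.
mmu-miR-291a-3p: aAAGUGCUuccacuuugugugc
mmu-miR-294-3p: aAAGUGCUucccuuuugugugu
mmu-miR-295-3p: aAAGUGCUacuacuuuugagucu
mmu-miR-302b-3p: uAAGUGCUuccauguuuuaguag
mmu-miR-302d-3p: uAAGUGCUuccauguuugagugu
Its 7-letter complement, AGCACTT, was searched on the transcript strand of the GENCODE 3′UTRs (mm10). It occurred in 3 of the 10 genes, namely Lefty1, Lefty2 and Mixl1, and in 15.3% of 21153 genes. The letters in capitals below are the match, with an A after it where the transcript has one. The 8-letter form AGCACTTA occurred in Lefty1 and Lefty2 and in 3.04% of all genes.
Lefty1 (chr1:180938202-180938223, + strand): actgtatgcgaAGCACTTAcat
Lefty2 (chr1:180897906-180897927, + strand): cacccagtttaAGCACTTAcat
Mixl1 (chr1:180693408-180693429, - strand): ccatttttcttAGCACTTgtta
The match began at base 238 of 425 in Lefty1, at base 104 of 1290 in Lefty2 and at base 1201 of 1576 in Mixl1, and all 3 lie within the measured sites. The longest run of bases that the Lefty1 and Lefty2 3′UTRs have in common was 13, so reads of the pair are distinct over nearly all of their 3′UTRs. A match of letters is a description and not a measured site.

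Lefty1, Lefty2 and Mixl1 are neighbours on chromosome 1. The sites of Lefty2 and Lefty1 are 36.9 kb apart, and that of Mixl1 lies 203.2 kb from Lefty2. Within 250 kb of the Lefty genes there are 17 other sites, of which 16 were tested in each comparison with WT. In DIDO3ΔE16, 1 of the 16 was called higher and 3 lower, where 10.2% and 4.94% of all tested sites were. In DIDO3ΔCT+HADIDO3, 2 of the 16, both of Lin9, were called higher, where 10.1% of all tested sites were. Tmem63a, a membrane channel gene beyond Lefty1, measured 16.1 ± 0.344 TPM in WT, compared with 6.09 ± 0.844 in DIDO3ΔE16 and 17.3 ± 1.79 in DIDO3ΔCT+HADIDO3 (SD, n = 3), and was called lower in DIDO3ΔE16 (-1.46, adjusted p = 0.000955). Nvl had a site called higher (1.05) and another called lower (-0.83). Tmem63a had a value of 0.00 in DIDO3ΔCT+HADIDO3 against WT (adjusted p = 0.999), which is not a call.

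**Figure D4:**
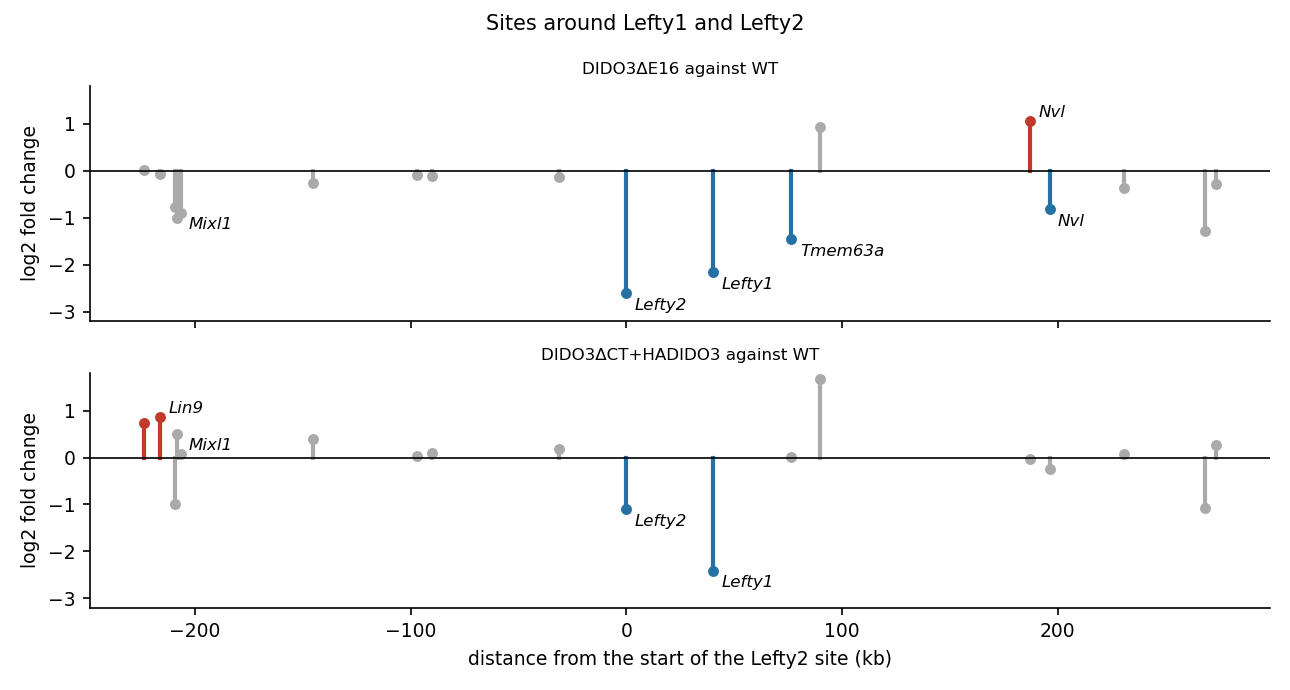
Log2 fold change (y axis) of tested sites around the Lefty genes against distance from the start of the Lefty2 site in kb (x axis), for DIDO3ΔE16 and DIDO3ΔCT+HADIDO3 against WT, with sites called higher in red, lower in blue and not called in grey. Tmem63a is called lower with the Lefty genes in DIDO3ΔE16, at -1.46, and is not called in DIDO3ΔCT+HADIDO3.

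Of the rest of the Nodal pathway, the receptors Acvr1b and Acvr2b and the transducers Smad2 and Foxh1 showed smaller log2 fold changes against WT than the antagonists. A list of 27 pathway genes, which includes Nodal, Tdgf1, Lefty1 and Lefty2, had 23 tested in DIDO3ΔE16 against WT, of which 2 were called higher and 3 lower, with a median log2 fold change of -0.10. In DIDO3ΔCT+HADIDO3 against WT, 22 were tested, of which 1 was called higher and 5 lower, with a median of -0.09. Between the lines, 22 were tested, of which 4 were called higher and 6 lower in DIDO3ΔE16, with a median of -0.10. Called shares were 21.7%, 27.3% and 45.5%, beside 15.1%, 17.3% and 27.4% of all tested sites.

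The receptor genes Acvr1b (142 ± 2.44 TPM in WT, compared with 148 ± 3.38 in DIDO3ΔE16 and 184 ± 8.43 in DIDO3ΔCT+HADIDO3) and Acvr2b (114 ± 3.05, 105 ± 1.47 and 92.5 ± 2.43) were called in none of the comparisons, and log2 fold changes ran from -0.40 to 0.27. Smad2, which carries the signal to the nucleus, measured 69.0 ± 3.01 TPM in WT, compared with 55.3 ± 2.41 in DIDO3ΔE16 and 101 ± 1.38 in DIDO3ΔCT+HADIDO3. The DNA-binding partner Foxh1 measured 21.5 ± 1.02, 15.1 ± 2.05 and 27.4 ± 3.03, at a site that overlaps another on the opposite strand. Both were called lower in DIDO3ΔE16 than in DIDO3ΔCT+HADIDO3 (-0.85 and -0.84) and neither passed the fold against WT. Pcsk6, a convertase that cuts the Nodal precursor, was higher in DIDO3ΔE16 than in DIDO3ΔCT+HADIDO3 (160 ± 7.91 against 98.0 ± 0.712 TPM, 0.73), as was the Nodal-related ligand Gdf3 (41.7 ± 1.82 against 24.9 ± 0.997 TPM, 0.76). Skil, a repressor of Smad signalling, was called lower there (37.0 ± 32.9 against 142 ± 11.1 TPM, -2.31, adjusted p = 0.0451), with a spread in DIDO3ΔE16 nearly as large as its mean.

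Activins use the same receptors as Nodal. Inhba, an activin subunit, rose from 25.1 ± 1.42 TPM in WT to 61.4 ± 5.06 in DIDO3ΔE16 (log2 fold change 1.22, adjusted p = 0.000485) and was at 0.0693 ± 0.0609 in DIDO3ΔCT+HADIDO3, where 1 or more libraries were at 0 and no test was made. Fst, the activin inhibitor follistatin, measured 8.23 ± 0.564 TPM in WT, compared with 20.7 ± 1.73 in DIDO3ΔE16 (1.26) and 1.70 ± 0.112 in DIDO3ΔCT+HADIDO3 (-2.31), at a site that overlaps another on its strand. Inhbb, the other activin subunit, was highest in DIDO3ΔCT+HADIDO3, at 206 ± 3.51 TPM against 69.2 ± 3.15 in WT (1.47) and 98.8 ± 3.26 in DIDO3ΔE16.

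Among the streak transcription factors, Eomes was clearest. Eomes, a T-box factor needed for definitive endoderm and mesoderm, has 2 measured sites. The downstream one (chr9:118485013-118488132, + strand, 1120 bases of 3′UTR) measured 30.4, 29.9 and 29.3 TPM in WT, 54.1, 58.1 and 60.0 in DIDO3ΔE16, and 17.9, 19.8 and 21.4 in DIDO3ΔCT+HADIDO3. The 3 groups stood apart, in the same order as Nodal. Against WT the log2 fold change was 0.88 ± 0.04 in DIDO3ΔE16 (SE, adjusted p = 0.00032) and -0.70 ± 0.06 in DIDO3ΔCT+HADIDO3 (adjusted p = 0.00119). The second value is at the required fold, and the call was lost in 9 of 19 alternatives, over which the value ran from -0.75 to -0.46. Among them were the fits without DIDO3ΔCT+HADIDO3 replicate 1 (-0.65) and without WT replicate 1 (-0.70), without scaling (-0.60) and with single features (-0.46). Between the lines Eomes was 2.94-fold higher in DIDO3ΔE16 (1.56 ± 0.07, adjusted p = 7.6e-05).

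The upstream site of Eomes (chr9:118482299-118484757) belongs to a shorter transcript, Eomes-203, and 1975 of its 2459 bases are intron in the full transcript Eomes-201. It measured 22, 20.4 and 20.6 TPM in WT, 42.0, 44.8 and 42.4 in DIDO3ΔE16, and 14.8, 14.6 and 13.6 in DIDO3ΔCT+HADIDO3. The order of the groups was that of the downstream site, with log2 fold changes of 0.97 in DIDO3ΔE16 against WT, -0.65 in DIDO3ΔCT+HADIDO3 against WT and 1.60 between the lines. The ratio of the upstream to the downstream site was 0.703 ± 0.0204 in WT, compared with 0.751 ± 0.0390 in DIDO3ΔE16 and 0.732 ± 0.0946 in DIDO3ΔCT+HADIDO3 (SD, n = 3), and the groups overlapped (exact permutation p = 0.2, 0.7 and 0.8).

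T, the T-box factor Brachyury, was low in all libraries and highest in DIDO3ΔE16. Its site (chr17:8441870-8444496, + strand, 627 bases of 3′UTR) measured 1.82, 2.41 and 2.29 TPM in WT, 5.14, 4.72 and 3.67 in DIDO3ΔE16, and 2.06, 1.1 and 1.86 in DIDO3ΔCT+HADIDO3. Every DIDO3ΔE16 library lay above every other library, while WT and DIDO3ΔCT+HADIDO3 overlapped. The log2 fold change was 0.96 ± 0.20 in DIDO3ΔE16 against WT (SE, adjusted p = 0.0171) and 1.43 ± 0.28 against DIDO3ΔCT+HADIDO3 (adjusted p = 0.0097). In DIDO3ΔCT+HADIDO3 against WT it was -0.49, with a 95% interval of -1.19 to 0.22 (adjusted p = 0.229). T rests on 12 to 47 read pairs per library. Its call against WT was lost without DIDO3ΔE16 replicate 1 (0.85, adjusted p = 0.0525), without DIDO3ΔE16 replicate 2 (0.92, adjusted p = 0.0602), and against WT replicate 2-3 alone, the WT library on the flow cells of the mutants (0.79, adjusted p = 0.138).

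Mixl1, a homeobox factor of the streak, was lowest in DIDO3ΔE16, where T and Eomes were highest. Its site (chr1:180691048-180694618, - strand) measured 3.34, 2.32 and 2.51 TPM in WT, 2.01, 1.35 and 1.14 in DIDO3ΔE16, and 3.03, 2.89 and 3.17 in DIDO3ΔCT+HADIDO3. Each DIDO3ΔE16 library lay below every other library, and WT overlapped DIDO3ΔCT+HADIDO3. Mixl1 was 1.98-fold lower in DIDO3ΔE16 than in DIDO3ΔCT+HADIDO3 (log2 fold change -0.99 ± 0.23, adjusted p = 0.0183). This call was lost without DIDO3ΔCT+HADIDO3 replicate 1 (-0.98, adjusted p = 0.0552), without DIDO3ΔCT+HADIDO3 replicate 3 (-0.97, adjusted p = 0.0553) and without DIDO3ΔE16 replicate 2 (-0.93, adjusted p = 0.0576). Against WT the value was -0.90 ± 0.27 and did not pass (adjusted p = 0.0529), but it passed without DIDO3ΔE16 replicate 1 (-1.12, adjusted p = 0.0286). Mixl1 rests on 17 to 58 read pairs, and 1640 bases of its site overlap Lin9 on the opposite strand, whose reads may have been counted with it because no strand option is named. That Lin9 site had the same order of groups, at 76.0 ± 14.8 TPM in WT, compared with 44.2 ± 29.2 in DIDO3ΔE16 and 115 ± 10.3 in DIDO3ΔCT+HADIDO3 (SD, n = 3), and was called lower in DIDO3ΔE16 between the lines (-1.54, adjusted p = 0.0465). Its part in the values of Mixl1 was not tested.

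Gsc, a homeobox factor of the anterior streak, and Fgf8, a secreted growth factor, were near the limit of what this depth can show. Gsc (chr12:104469209-104471490, - strand) ran from 0.857 to 1.19 TPM in WT, 1.04 to 2.01 in DIDO3ΔE16 and 0.703 to 0.930 in DIDO3ΔCT+HADIDO3, on 7 to 13 read pairs. The mutant groups did not overlap, with a log2 difference of 0.76 between the lines (95% interval 0.03 to 1.48, adjusted p = 0.0804). That value passed the test without DIDO3ΔE16 replicate 2 (0.96, adjusted p = 0.0498). Fgf8 (chr19:45734798-45736989, - strand) ran from 0.102 to 0.615 TPM over all 9 libraries, on 1 to 6 read pairs, and a difference between the groups was not detectable at this depth. Its 95% intervals reached from -1.43 to 1.43 on the log2 scale.

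Kdr rose in DIDO3ΔCT+HADIDO3, from a very low level. Its most abundant site (chr5:75931270-75934422, - strand) measured 0.288, 0.230 and 0.441 TPM in WT, 0.444, 0.874 and 0.826 in DIDO3ΔE16, and 1.23, 0.828 and 0.966 in DIDO3ΔCT+HADIDO3. Every WT library lay below every mutant library, although WT replicate 4 and DIDO3ΔE16 replicate 1 all but met. Kdr was 2.51-fold higher in DIDO3ΔCT+HADIDO3 than in WT (log2 fold change 1.33 ± 0.28, adjusted p = 0.0167). In DIDO3ΔE16 against WT the value was 0.89 (95% interval 0.03 to 1.75, adjusted p = 0.107), and between the lines it was -0.46 (adjusted p = 0.273). The site holds 3 to 17 read pairs, and the call in DIDO3ΔCT+HADIDO3 against WT was lost in 5 of 18 alternatives. These were the fits without DIDO3ΔCT+HADIDO3 replicate 1 (1.18, adjusted p = 0.0527) and without WT replicate 1 (1.28, adjusted p = 0.0525), and those with a pseudocount of 1, with the replicate block and with WT replicate 2-3 as the only WT library. The other 2 Kdr sites, most of whose bases are intron in the full transcript, were at 0.265 TPM or less in every library, and neither was called where it could be tested. Summed over its 3 sites, Kdr passed the test in DIDO3ΔE16 against WT as well (1.18, adjusted p = 0.0396).

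**Figure D5:**
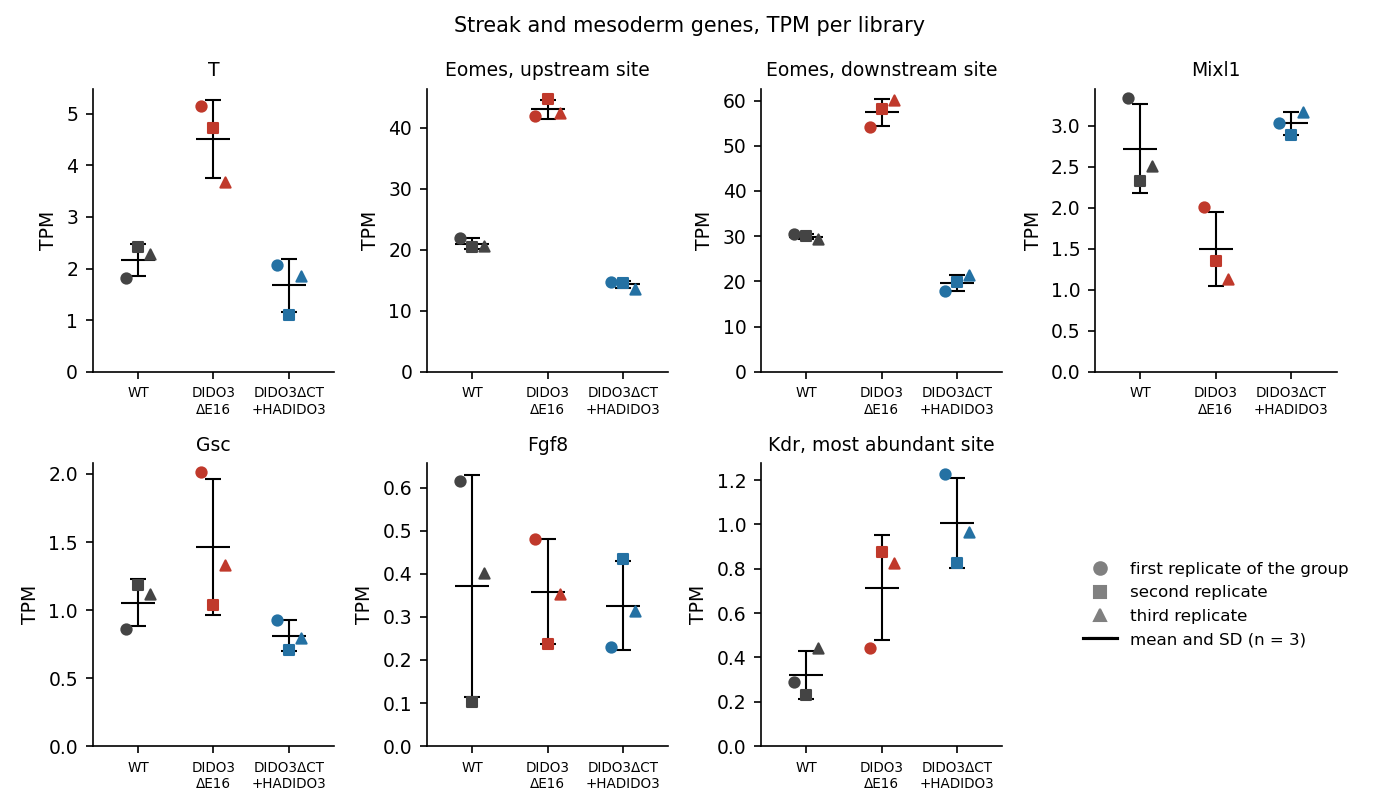
TPM (y axis, starting at 0) of T, both Eomes sites, Mixl1, Gsc, Fgf8 and the most abundant Kdr site in each of the 9 libraries by group, with mean and SD (n = 3). DIDO3ΔE16 is above all other libraries for T (3.67 to 5.14 TPM) and Eomes, and below them for Mixl1 (1.14 to 2.01).

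The wider list of 29 streak and mesoderm genes, which includes T, Eomes, Mixl1, Gsc, Fgf8 and Kdr, had 27 tested in DIDO3ΔE16 against WT. Of these, 5 were called higher and 1 lower (22.2%, beside 15.1% of all tested sites), with a median log2 fold change of 0.14. Beside T and Eomes, the genes called higher were Foxf1, a lateral mesoderm factor (0.507 ± 0.102 TPM in WT and 2.02 ± 0.324 in DIDO3ΔE16, log2 fold change 1.75), Cdx1, a caudal homeobox factor (64.0 ± 4.53 and 137 ± 6.07, 1.04), and Snai1, a driver of epithelial to mesenchymal transition (5.43 ± 0.225 and 10.3 ± 1.14, 0.85). Pdgfra, a receptor of mesoderm and of primitive endoderm, was called lower (12.2 ± 1.04 and 4.27 ± 0.771, -1.56).

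In DIDO3ΔCT+HADIDO3 against WT, 27 genes of this list were tested, of which 5 were called higher and 6 lower (40.7%, beside 17.3% of all tested sites), with a median of -0.07. The largest called increases beside Kdr were those of Isl1, a cardiac progenitor factor (0.662 ± 0.178 TPM in WT and 10.1 ± 0.493 in DIDO3ΔCT+HADIDO3, log2 fold change 3.68), and Bmp4, a ligand that induces mesoderm (3.7 ± 0.420 and 11 ± 0.581, 1.44). The largest called decreases were those of Pdgfra (to 1.84 ± 0.817 TPM, -2.87), Wnt8a, a Wnt ligand of the streak (5.80 ± 0.914 and 0.841 ± 0.144, -2.74), and Foxa2, an endoderm factor (1.5 ± 0.529 and 0.163 ± 0.0404, -2.63). The list thus held genes called in both directions in this line. Between the lines, 28 genes were tested, of which 10 were higher and 6 lower in DIDO3ΔE16 (57.1%, beside 27.4%), with a median of 0.28. Among called genes that averaged 1 TPM or more in 1 of the lines, the largest increases were those of Wnt8a (2.53), Cdx2 (1.36 ± 0.331 against 0.309 ± 0.164 TPM, 1.93) and Sox17 (1.92 ± 0.696 against 0.553 ± 0.0274 TPM, 1.58), and the largest decreases those of Isl1 (-2.89), Bmp4 (-2.27) and Sp5 (1.92 ± 0.648 against 4.29 ± 0.778 TPM, -1.15).

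Genes of other cells that such cultures can hold moved with the groups. The summed TPM of 12 genes of feeder fibroblasts was 88.4 to 128 in WT, 265 to 279 in DIDO3ΔE16 and 57.3 to 62.7 in DIDO3ΔCT+HADIDO3, which is the order of Nodal, Eomes, Inhba and Fst. Without Thy1, which was highest in DIDO3ΔCT+HADIDO3, the sum of the other 11 was 70.3 to 108, 231 to 247 and 5.15 to 7.78. Of the list, 8 of 10 tested genes were called higher in DIDO3ΔE16 against WT, where 10.2% of all tested sites were. In DIDO3ΔCT+HADIDO3 against WT 5 of 6 were called lower, where 7.24% of all tested sites were, with Thy1 higher. Dcn and Lum were at 0 in every WT library, Lum in every DIDO3ΔE16 library, and Col3a1 and Twist2 in every DIDO3ΔCT+HADIDO3 library. The part of these cells in the levels of Nodal, Eomes, T, Inhba and Fst was not tested.

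The summed TPM of 8 genes of primitive endoderm was highest in WT, as were Lefty1, Lefty2 and Pdgfra, at 234 to 279 TPM against 132 to 152 in DIDO3ΔE16 and 88.5 to 99.2 in DIDO3ΔCT+HADIDO3. Of the 8 primitive endoderm genes, 5 were called lower in DIDO3ΔE16 and 7 in DIDO3ΔCT+HADIDO3 against WT, where 4.94% and 7.24% of all tested sites were. Pdgfra, Sox17 and Foxa2 stand in both this list and the streak list. The summed TPM of 8 early neural genes was 42.9 to 43.5 in WT, 61.6 to 66.8 in DIDO3ΔE16 and 47.6 to 50.9 in DIDO3ΔCT+HADIDO3, with Pax6 at 0 in every library. Of the 6 neural genes tested against WT, 2 were called higher and 1 lower in DIDO3ΔE16, where 10.2% and 4.94% of all tested sites were. In DIDO3ΔCT+HADIDO3, 1 was called higher and 2 lower, where 10.1% and 7.24% of all tested sites were. The part of either cell type in the results above was not tested.

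In 7.16% of 34307 pairs of a site and a group with a mean of at least 10 TPM, 1 library fell below 25% of the group's median. Of the 13 sites of the 10 genes, 6 reached this level in any group, namely those of Nodal, Tdgf1, Lefty1, Lefty2 and Eomes, and none of these 6 did so. Of the genes of the lists 10 did, Nanog, Esrrb, Tbx3, Tbx6 and Tgif1 among them. Groups in which most libraries are low are not counted this way, such as WT for Esrrb (5.18, 1155 and 8.78 TPM). For Nodal, Tdgf1, Lefty1, Lefty2 and Eomes the lowest library of any group was at least 0.856 of that group's median, while for T it was 0.591, for Kdr 0.537 and for Fgf8 0.254.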

How the data were processed

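RNA-seq libraries of WT, DIDO3ΔE16 and DIDO3ΔCT+HADIDO3 ESC (3 each) were grouped by their labels. The authors used BWA-MEM (0.7.15) to align paired-end reads to mm10. Duplicates were removed by Picard (2.9.0), and StringTie (1.3.3) was run on UCSC 3′UTRs extended by 2 kb. The deposited TPM values were used as they stand, and the mean coverage per feature served only to derive read pairs (152 bases each). The paper describes a stranded library, while the StringTie command recorded in the headers has no strand setting. The authors used edgeR. As the values used here are TPM and not counts, limma took its place.

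Features were named by coordinates from GENCODE M21 (42367 of 43031), and TPM was added over features with identical coordinates. Scale factors came from the trimmed mean of the log2 ratios, leaving out 30% at either end. After 0.1 had been added, log2 values of both groups of a comparison were fitted with limma (3.58.1, R 4.3.3, 2-sided, trend and robust estimation). The Benjamini-Hochberg adjustment covered all sites tested. Fold changes on this scale understate those of low genes. Python (3.11.15), numpy (2.4.6), pandas (2.3.3), scipy (1.17.1) and matplotlib (3.10.9) were used for the rest. On simulated data the procedure recovered 45.3% of changes of 1 on the log2 scale and 69.3% of changes of 2 in DIDO3ΔE16 against WT (21063 sites). A site that was not called can therefore still have changed. The simulation changed far fewer sites than were called in the data, so these shares may not carry over to the data. Read pairs are a counting limit only.

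All 10 genes were named. Each gene of a list was taken at its most abundant site. Those called could be named if 1 of the groups had a mean of 1 TPM or more and the groups did not overlap, at most 3 in each direction. Pathway ligands, receptors and transducers could be named by level. Not every gene that met this rule is named, least of all in the lists of pluripotency genes and of other cells. Snai1, Pcsk6, Smad2 and Foxh1 were named after their values were seen, as were Thy1, Lamb1, Sox1, Otx2 and the neighbouring genes on chromosome 1. The members and lists were chosen with earlier results of these data known. Alternatives were a replicate block, WT replicate 2-3 alone, the flow cell family as a covariate, each library left out, other pseudocounts and filters, no scaling or quantile normalization, a joint fit, moderation without trend, single features, and TPM summed per gene. Restricting lists to genes whose site shares no base with another on its strand was chosen after seeing the data. The results of 2 genes are counted but not reported by name or plotted here. The exon analysis and ChIP-seq were not analysed here.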

Additional observations from a re-analysis of the deposited data

Results flagged for a closer look

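For 5 of the 10 genes the response differed between the mutant lines by a test of that difference itself, the comparison of DIDO3ΔE16 with DIDO3ΔCT+HADIDO3. On the log2 scale the difference was 1.04 for Nodal (adjusted p = 5.44e-05), -1.54 for Lefty2 (adjusted p = 0.000165), 1.43 for T (adjusted p = 0.0097), 1.56 for Eomes (adjusted p = 7.6e-05) and -0.99 for Mixl1 (adjusted p = 0.0183). All 3 DIDO3ΔE16 libraries lay on the same side of all 3 DIDO3ΔCT+HADIDO3 libraries for each of the 5, as at 61.6% of all tested sites. The 5 genes were picked by their calls in this same comparison, so this is no separate support. Nodal and Eomes were above WT in every DIDO3ΔE16 library and below WT in every DIDO3ΔCT+HADIDO3 library. Reads of Lin9, which overlaps Mixl1 on the opposite strand and was also lower in DIDO3ΔE16 between the lines (-1.54), may be counted in Mixl1. The background is 27.4% of all tested sites called between these lines. The lines differ in deletion, derivation and the added protein, which cannot be told apart.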

How the results depend on the processing

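Over 19, 19 and 17 alternatives, 0 to 6 of the 10 genes were called in DIDO3ΔE16 against WT, 0 to 5 in DIDO3ΔCT+HADIDO3 against WT and 4 to 6 between the lines. Same-numbered libraries did not deviate together (correlations -0.032 to 0.035 over 7 pairs), so the numbers do not pair them. With the replicate block, 0 of the 10 genes, 0 Nodal pathway genes and 0 streak genes were called in either comparison with WT by limma, as were 0 of all sites, although 6198 and 6915 sites had an unadjusted p under 0.05. In those comparisons WT replicate 4 and replicate 3 of the mutant group each stand alone in a block, which leaves few degrees of freedom to estimate the spread. Between the lines, where the blocks match, 5183 sites were called with the block. Without the block, leaving out 1 library gave 3 to 4, 3 to 5 and 4 to 5 genes in the 3 comparisons, 5 to 6, 6 to 7 and 8 to 10 of the pathway list, and 6 to 6, 6 to 10 and 10 to 12 of the streak list. Of all sites, 2725 to 2955, 3150 to 3491 and 5466 to 5552 were then called, where 3191, 3612 and 5791 were called with every library. In DIDO3ΔCT+HADIDO3 against WT, 3 of the 10 genes were called without scaling, with a pseudocount of 1 and with quantile normalization. Of all 20879 tested sites, 3715, 2714 and 3453 were called under these settings, where 3612 were called in the main fit. Of the streak list, 7 were called with a mean of at least 1 TPM or a pseudocount of 1. With a mean of at least 1 TPM, 3046 of 17705 sites were called. Signs turned only for differences that were not called. In DIDO3ΔE16 against WT, Gsc was -0.032 under quantile normalization, and Fgf8 was -0.017 with a pseudocount of 1, -0.35 under quantile normalization and -0.47 to 0.44 without 1 library. In DIDO3ΔCT+HADIDO3 against WT, Tdgf1 was 0.073 without scaling, 0.083 under quantile normalization, 0.048 with the replicate block and -0.067 to 0.019 without 1 library, and Mixl1 was -0.077 under quantile normalization and -0.0365 to 0.21 without 1 library. Fgf8 there was 0.99 with WT replicate 2-3 alone, 0.98 with the flow cell covariate, 0.0051 without scaling, 0.092 with the replicate block and -0.60 to 0.31 without 1 library. Between the lines Fgf8 was -0.22 under quantile normalization and -0.083 to 0.32 without 1 library. Lefty1, Lefty2 and Eomes in DIDO3ΔE16 against WT lost their calls only with the replicate block. The cause of these shifts was not tested. Quantile normalization called 1688 sites higher and 1379 lower in DIDO3ΔE16 against WT, where 2151 and 1040 were called without it. Depth limits Fgf8, Gsc and Kdr.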

Other observations

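Kdr was set beside 15 other genes of vessels and blood. In DIDO3ΔE16 against WT, 15 of these 16 were tested, of which 3 were called higher and 1 lower (26.7%, beside 15.1% of all tested sites). In DIDO3ΔCT+HADIDO3 against WT, 2 were called higher and 5 lower (46.7%, beside 17.3%). Flt4, a VEGF receptor of lymphatic vessels, rose in both groups, from 5.17 ± 0.481 TPM in WT to 15.6 ± 1.58 in DIDO3ΔE16 (log2 fold change 1.51) and 17.5 ± 0.343 in DIDO3ΔCT+HADIDO3 (1.65). Nrp2, a co-receptor, fell in both, from 37.4 ± 2.28 to 19.7 ± 1.51 (-0.99) and 20.1 ± 0.724 TPM (-1.0). Tie1, an endothelial receptor, rose in DIDO3ΔE16 from 0.779 ± 0.205 to 4.80 ± 0.466 TPM (2.44). It was at 0.633 ± 0.202 TPM in DIDO3ΔCT+HADIDO3, lower than in DIDO3ΔE16 by a test of that difference (2.79 between the lines, adjusted p = 0.000518). Nrp1 rose in DIDO3ΔE16 to 6.66 ± 1.40 TPM (1.18, adjusted p = 0.00704). Nrp1 and the receptor Tek, at 2.73 ± 0.267 and 9.26 ± 0.998 TPM in WT, were at 0.217 ± 0.0330 (-3.24) and 0.869 ± 0.468 (-3.49) in DIDO3ΔCT+HADIDO3, where the sum of the 11 feeder fibroblast genes other than Thy1 was 5.15 to 7.78 TPM.

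Of Fgf8 with 8 other FGF genes and receptors, all 9 were tested, with 1 called higher and 2 lower in each comparison with WT (33.3%, beside 15.1% and 17.3% of all tested sites). Fgfr1, the main FGF receptor of ESC, fell from 292 ± 3.46 TPM in WT to 62.6 ± 2.87 in DIDO3ΔE16 (log2 fold change -2.28, adjusted p = 3.57e-05). Its DIDO3ΔCT+HADIDO3 libraries were at 64.5, 310.2 and 62.6 TPM, so that replicate 2 stood with WT and the others with DIDO3ΔE16. The Fgfr1 site overlaps another on the opposite strand, whose reads may have been counted with it, as for Mixl1. Their part in these values was not tested. Fgf4, the main FGF ligand of ESC, measured 689 ± 18.1 TPM in WT and 664 ± 8.11 in DIDO3ΔE16, and it fell to 404 ± 4.67 in DIDO3ΔCT+HADIDO3 (log2 fold change -0.87, adjusted p = 0.000244). Fgfr3 rose in DIDO3ΔCT+HADIDO3, from 10.7 ± 0.778 to 30.5 ± 2.04 TPM (1.40). Fgfr2, the receptor known in primitive endoderm, fell in both groups, from 5.92 ± 0.492 TPM to 3.75 ± 0.690 (-0.72) and 1.61 ± 0.187 (-1.92).

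On chromosome 17, 99.9 kb from T, Prr18 rose from 1.63 ± 0.347 TPM in WT to 16.3 ± 0.759 in DIDO3ΔE16 (SD, n = 3), and DIDO3ΔCT+HADIDO3 had 1.43 ± 0.0965. Its log2 fold change was 3.20 in DIDO3ΔE16 against WT (adjusted p = 0.00034) and 3.44 between the lines (adjusted p = 2.98e-05), a larger difference than that of T itself. T2, which lies 19.7 kb from T, was at 0.132 ± 0.159 TPM in WT, compared with 1.16 ± 0.118 in DIDO3ΔE16 and 0.228 ± 0.161 in DIDO3ΔCT+HADIDO3. It was called higher in DIDO3ΔE16 between the lines (2.08, adjusted p = 0.00912), and a WT library at 0 kept it out of the test against WT. Prr18 and T2 were named after their values were seen, and Prr18 was the only one of 5 tested sites within 250 kb of T that was called in DIDO3ΔE16 against WT.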
